A study of Mus musculus with 6 samples.

Results

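The 10 genes described here are the Janus kinases Jak1, Jak2 and Tyk2, the signal transducers Stat3, Stat5a, Stat5b and Stat6, and the feedback inhibitors Socs1, Socs3 and Cish. They were taken by gene symbol from a table of 52636 genes, with 1 row for each of the 10. The rule used no measured value, but these genes and the lists below were chosen with earlier results of these data known. RNA was sequenced from neutrophils of the bone marrow of mice aged 10 weeks on the C57BL/6N strain, in 3 libraries labelled WT and 3 libraries whose genotype is given as LRP5f/f/Lyz2Cre+, called LRP5-KO below. In the latter mice both Lrp5 alleles are floxed and Cre is expressed from Lyz2, a gene active in neutrophils, monocytes and macrophages alike, so the deletion is not limited to neutrophils. The study's methods name purchased wildtype C57BL/6N mice, and the labels do not say whether these or littermates gave the WT libraries. Nor do they say whether each library came from a separate mouse, so p-values measure only the spread between these libraries, which may be technical.

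Cytokine receptors of this pathway have no enzyme activity of their own and carry Janus kinases on their intracellular tails. Once a cytokine brings the receptor chains together, the kinases phosphorylate the receptor and then STAT proteins, which pair, enter the nucleus and switch on genes, among them those of the SOCS family, whose proteins shut the receptor down. In neutrophils the best known of these loops runs from granulocyte colony-stimulating factor and its receptor Csf3r through JAK1, JAK2 and TYK2 to STAT3 and STAT5, with SOCS3 as the main brake. The activity of these proteins is set by phosphorylation, which RNA levels do not measure.

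STAT dimers can bind the palindrome TTCNNNGAA, in which N is any base and which reads the same on both strands. Only this spacing was searched, so STAT sites with another spacing are not covered. RefSeq promoter windows, 250 bases before to 50 bases after a start site, were found for all 10 genes (12 windows), and the motif was present in those of 2 genes, Cish and Socs3, against 8.30% of the 32851 mouse promoter windows searched. These stretches are shown because both genes are textbook STAT targets whose own RNA levels are given below. The Socs3 stretch is the 250 bases before the start site, chr11:117830681-117830930 on the minus strand of NCBIM37 (mm9), with the motif in capitals at bases 154 to 146 before the start site. In GENCODE M1 this stretch lies inside the bounds of the Socs3 gene, because a longer non-coding transcript begins farther upstream, and it touches an annotated exon, but the motif itself lies in none. The Cish stretch is chr9:107198980-107199009 on the plus strand, from 10 bases before to 20 bases after the RefSeq start site, and lies within an exon and 5′ untranslated region of a longer Cish transcript in GENCODE M1. It holds 2 copies of the motif, both in capitals, and windows with at least 2 copies made up 0.457% of those searched. Both sequences are from RefSeq (GRCm38.p6), and each was found once, unchanged, on NCBIM37, where its coordinates were read. No binding was measured, so a match describes letters only.
Socs3: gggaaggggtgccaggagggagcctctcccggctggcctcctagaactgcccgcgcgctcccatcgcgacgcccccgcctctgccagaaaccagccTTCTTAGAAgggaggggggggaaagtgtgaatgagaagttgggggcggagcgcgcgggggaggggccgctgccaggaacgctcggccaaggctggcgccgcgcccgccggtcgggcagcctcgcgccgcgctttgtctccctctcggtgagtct
Cish: ccgcccagttTTCCTGGAAagTTCTTGGAA

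The deposited values are TPM, which are corrected for gene length and scaled to the same total in every library, and the libraries held 249841492 to 340580330 reads. The values are relative, and in a bulk sample fewer cells of a type and less RNA per cell cannot be told apart. Lrp5 RNA averaged 1.29 ± 0.15 TPM in WT and 1.84 ± 0.21 TPM in the libraries labelled LRP5-KO (SD, n = 3 each), a log2 fold change of 0.31 (adjusted p by limma = 0.136). For Lrp5 each library labelled LRP5-KO was above each WT library, as for 17.4% of all genes, and the means differed by 43.2%. The targeted transcript was thus not lower in the libraries labelled LRP5-KO, although a sum over the whole gene may include transcripts that lack the deleted part, and every direction below rests on the labels. Lyz2, which carries the Cre, fell from 25963 ± 1039 TPM (SD, n = 3) in WT to 13792 ± 375 TPM (SD, n = 3) in LRP5-KO, a log2 fold change of -0.91 (adjusted p by limma = 0.00351). All 12 neutrophil markers were above the filter and their summed level was 398388 to 442831 TPM in WT and 426942 to 447269 TPM in LRP5-KO. S100a8 and S100a9 made up most of this sum (means over all libraries of 127196 and 214290 TPM). Without overlap, 2 of the 12 were above WT (S100a9 and Camp, against 17.4% of all genes) and 2 were below (Mmp8 and Cxcr2, against 12.3%). These genes were named after their values were seen. WT replicate 3 stood apart from the other two WT libraries: 3.30% of its reads were ribosomal, against 1.20% and 1.30% in WT replicates 1 and 2 and 2.69% to 2.98% in LRP5-KO, and genes rich in G and C were relatively high in WT replicate 3 and the LRP5-KO libraries (Spearman correlation of a gene's GC content with its deviation in the library of 0.33 to 0.44) and low in WT replicates 1 and 2 (-0.61 and -0.43). Intronic reads made up 7.78% to 9.0% of reads in WT and 10.6% to 11.2% in LRP5-KO. For Lrp5 the log2 fold change was 0.23 against WT replicate 3 alone and 0.15 with GC content and length trends removed (limma adjusted p = 0.228). The part of these differences in the results below was not tested except where values without WT replicate 3, with the ribosomal share as a covariate, or with GC content and length trends removed, are given.

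All 10 genes were detected in all 6 libraries and passed the filter of a mean of at least 1 TPM. Their mean levels over the 6 libraries spanned 161-fold. Jak1 was the most abundant at 187 TPM, followed by Stat6 (134 TPM), Stat3 (115 TPM), Stat5b (54.3 TPM), Socs3 (33.7 TPM), Jak2 (30.7 TPM), Tyk2 (10.6 TPM), Stat5a (8.52 TPM), Socs1 (3.93 TPM) and Cish (1.16 TPM). The ranges over libraries overlapped for 3 neighbouring pairs in this order. Stat6 was nonetheless above Stat3, and Tyk2 above Stat5a, within each of the 6 libraries, whereas Socs3 was above Jak2 in only 3 of 6, namely the 3 libraries labelled LRP5-KO.

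**Figure D1:**
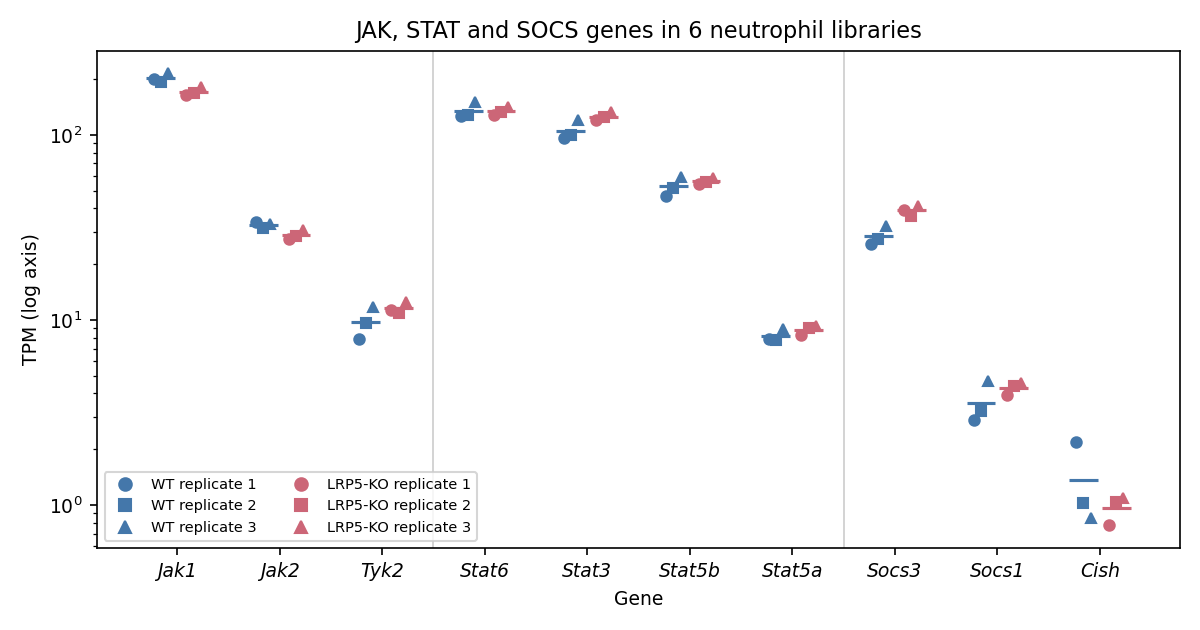
TPM of each of the 10 genes (log axis) in the 3 WT libraries (blue) and the 3 LRP5-KO libraries (red), with symbols for replicates and bars for group means. The groups are apart for Jak1, Jak2 and Socs3 and overlap for the other 7 genes, and WT replicate 3 (blue triangle) is the highest WT library for 8 of the 10.

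Of the 10 genes, 0 had an adjusted p under 0.05 in the limma fit over 9775 genes, in which 52 genes (0.532%) were called. At an unadjusted p under 0.05 there were 4 of the 10 (Jak1, Jak2, Stat3 and Socs3), against 23.5% of all genes tested. For Socs3 each LRP5-KO library was above each WT library, as for 17.4% of all genes, and for Jak1 and Jak2 each was below, as for 12.3% of all genes. The median log2 fold change of the 10 genes was 0.09, with 6 above 0, against a median of 0.04 and 58.8% above 0 over all genes tested. Without WT replicate 3, 3 of the 10 were called and all 3 were higher in LRP5-KO (Stat3, Socs1 and Socs3), while 19.6% of all genes were called in that fit. With trends over GC content and transcript length removed from each library, an alternative chosen after the data had been seen, 2 of the 10 were called, Socs3 higher and Jak1 lower, against 4.85% of the 8769 genes in that fit, and the median of the 10 was then -0.02. With the ribosomal share as a covariate 0 of the 10 genes were called by limma, and the log2 fold changes were -0.31 for Jak1, -0.19 for Jak2, 0.06 for Tyk2, 0.11 for Stat3, 0.01 for Stat5a, -0.03 for Stat5b, -0.12 for Stat6, 0.0012 for Socs1, 0.33 for Socs3 and -0.02 for Cish.

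**Figure D2:**
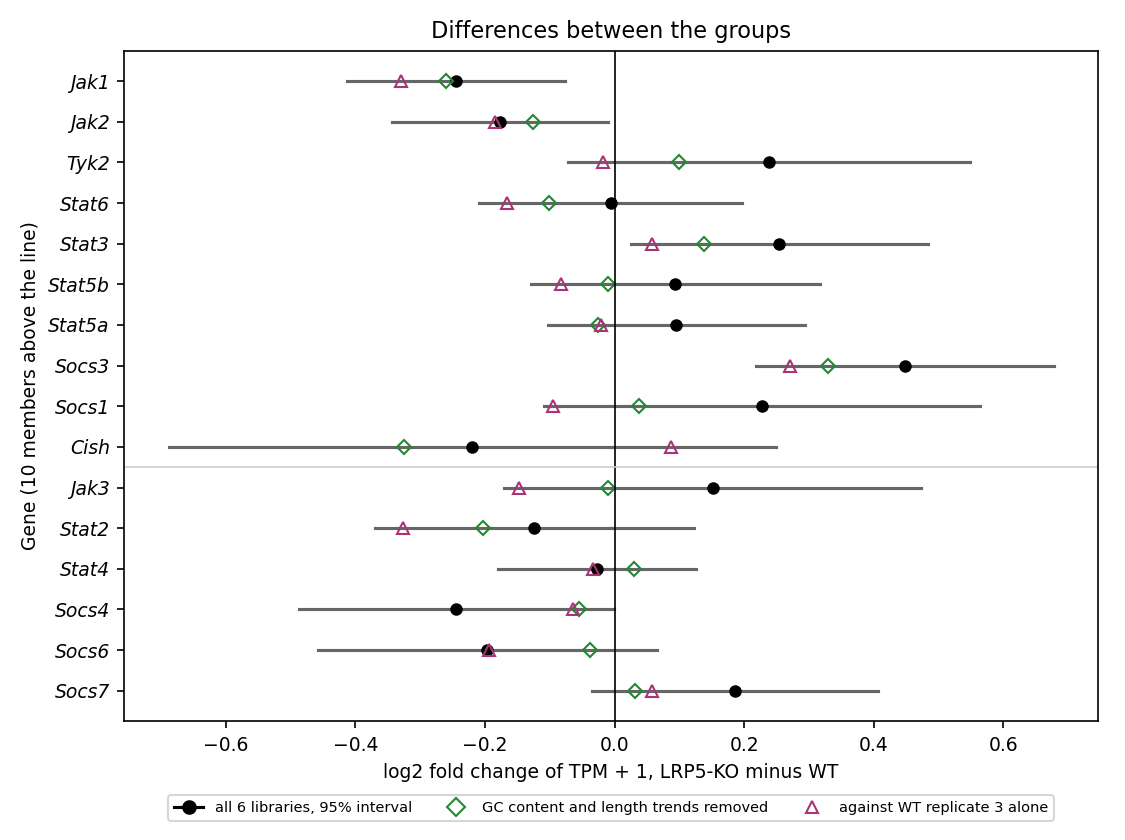
Log2 fold change of TPM + 1 (LRP5-KO minus WT) for the 10 genes above the grey line and, below it, the 6 other family genes that passed the filter. Shown are 95% intervals from limma (black), the value after removal of GC content and length trends (green diamonds) and the value against WT replicate 3 alone (purple triangles). Socs3 (0.45) is the highest and Jak1 (-0.24) the lowest of the 10. The 3 estimates lie on the same side of 0 for both, and also for Jak2, Stat3 and Stat6.

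Jak1 encodes the kinase that serves the receptors of interferons, of the interleukin-6 family and of interleukin-4. It lies on chromosome 4 from 100824972 to 100937887 (NCBIM37, minus strand). It was 199.7, 193 and 215 TPM in WT replicates 1 to 3 and 164, 167 and 181 TPM in LRP5-KO replicates 1 to 3. Every LRP5-KO library was below every WT library. This gave a log2 fold change of -0.24 (95% interval -0.41 to -0.07, limma adjusted p = 0.132), and the means differed by -15.7%. Jak1 was below WT under all 15 alternatives tried, by -0.33 to -0.20 on the log2 scale, with limma adjusted p values between 0.0301 and 0.361, and the lowest p came with the GC and length trends removed (log2 fold change -0.26).

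Jak2, the kinase of the receptors for erythropoietin, thrombopoietin and growth hormone and of the shared beta chain of the GM-CSF receptor, lies on chromosome 19 from 29326318 to 29387570 (plus strand). It was 33.7, 31.5 and 32.8 TPM in WT and 27.5, 28.5 and 30.4 TPM in LRP5-KO. The groups did not overlap here either, although the highest LRP5-KO library was close to the lowest WT library. For Jak2 the log2 fold change was -0.18 (95% interval -0.35 to -0.01, limma adjusted p = 0.195), and it stayed below 0 under all 15 alternatives, from -0.25 to -0.13, with 0 of them calling the gene.

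Tyk2, which serves the receptors of type I interferons and of interleukins 12 and 23, lies on chromosome 9 from 20908521 to 20931790 (minus strand). It was 7.92, 9.60 and 11.7 TPM in WT and 11.3, 10.9 and 12.5 TPM in LRP5-KO. WT replicate 3 lay within the LRP5-KO range, and the other WT libraries lay below it. For Tyk2 it was 0.24 on the log2 scale (95% interval -0.08 to 0.55, limma adjusted p = 0.316). Against WT replicate 3 alone it was -0.02, and with GC content and length trends removed it was 0.10.

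The fourth kinase of the family, Jak3, which pairs with the common gamma chain of lymphocyte cytokine receptors, was low and overlapped between the groups (5.54 ± 1.29 TPM in WT and 6.17 ± 0.24 TPM in LRP5-KO, SD, n = 3 each). The summed TPM of the 4 kinases was 246, 239.7 and 266 in WT and 209, 213 and 231 in LRP5-KO, without overlap. Jak1 held 80.9 ± 0.35% (SD, n = 3) of this sum in WT and 78.6 ± 0.13% (SD, n = 3) in LRP5-KO, and Tyk2 3.87 ± 0.59% and 5.31 ± 0.18%. The ratio of Jak1 to Tyk2 was 25.2, 20.1 and 18.4 in WT and 14.6, 15.4 and 14.5 in LRP5-KO. The Jak1 to Jak2 ratio overlapped between the groups, at 5.93, 6.13 and 6.55 in WT and 5.97, 5.88 and 5.96 in LRP5-KO.

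Among the STAT genes, Stat3, the transducer of G-CSF, interleukin-6 and interleukin-10 signals, lies on chromosome 11 from 100746412 to 100800854 (minus strand). It was 95.8, 100.2 and 120.5 TPM in WT and 119.7, 124 and 132 TPM in LRP5-KO. WT replicate 3 was just above LRP5-KO replicate 1, and all other WT libraries were below all LRP5-KO libraries. The log2 fold change was 0.25 (95% interval 0.02 to 0.49, limma adjusted p = 0.183). Without WT replicate 3 it was 0.35 (limma adjusted p = 0.0209), and against that library alone it was 0.06 (limma adjusted p = 0.732). It was 0.14 with GC content and length trends removed.

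Stat5a and Stat5b, near-identical transducers of GM-CSF, interleukin-3 and growth hormone signals, are neighbours of Stat3 on chromosome 11, at 100720665 to 100746483 (plus strand) and 100642045 to 100712038 (minus strand). The ends of Stat5a and Stat3 share 72 bases on opposite strands, and the deposited read summary gives 99.4% to 99.5% of reads on the correct strand. Reads from stretches that Stat5a and Stat5b have in common could be assigned to either, so the division between the pair is uncertain. Stat5a was 7.88, 7.79 and 8.97 TPM in WT and 8.29, 8.99 and 9.22 TPM in LRP5-KO. Stat5b was 47.0, 51.5 and 59.3 TPM in WT and 54.0, 55.4 and 58.6 TPM in LRP5-KO. Both overlapped between the groups, with WT replicate 3 inside the LRP5-KO range for Stat5a and above it for Stat5b. Their log2 fold changes were 0.10 (95% interval -0.11 to 0.30, limma adjusted p = 0.523) and 0.09 (95% interval -0.13 to 0.32, limma adjusted p = 0.576). Both estimates turned below 0 with GC content and length trends removed (-0.03 and -0.0094) and against WT replicate 3 alone (-0.02 and -0.08). Stat5b exceeded Stat5a by a ratio of 5.96, 6.61 and 6.62 in WT and 6.51, 6.16 and 6.36 in LRP5-KO, which also overlapped.

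Stat6, the transducer of interleukin-4 and interleukin-13, lies on chromosome 10 from 127080042 to 127098013 (plus strand). It was 126, 128 and 150.3 TPM in WT and 128, 132 and 141 TPM in LRP5-KO, so that the LRP5-KO range lay inside the WT range. For Stat6 the log2 fold change was -0.01 (95% interval -0.21 to 0.20, limma adjusted p = 0.973), and its sign changed when WT replicate 3, LRP5-KO replicate 1 or LRP5-KO replicate 2 was left out.

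As shares of the summed TPM of the 4 STAT genes among the 10, Stat3 held 34.6%, 34.8% and 35.5% in WT and 38.6%, 38.7% and 38.8% in LRP5-KO, and Stat6 held 45.6%, 44.6% and 44.3% in WT and 41.3%, 41.2% and 41.4% in LRP5-KO. Neither share overlapped between the groups, and WT replicate 3 lay with the other WT libraries for both. The ratio of Stat3 to Stat6, chosen after the values were seen, was 0.759, 0.781 and 0.802 in WT and 0.935, 0.939 and 0.936 in LRP5-KO. The shares of Stat5a and Stat5b overlapped between the groups, and so did the summed level itself (301 ± 33 TPM in WT and 324 ± 16 TPM in LRP5-KO, SD, n = 3 each). Outside the 10, Stat4, the transducer of interleukin-12, was 35.8 ± 1.4 TPM in WT and 35.1 ± 0.44 TPM in LRP5-KO, and Stat2, which acts in interferon signaling, 13.6 ± 2.0 and 12.3 ± 0.29 TPM (SD, n = 3 each), and both overlapped between the groups.

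**Figure D3:**
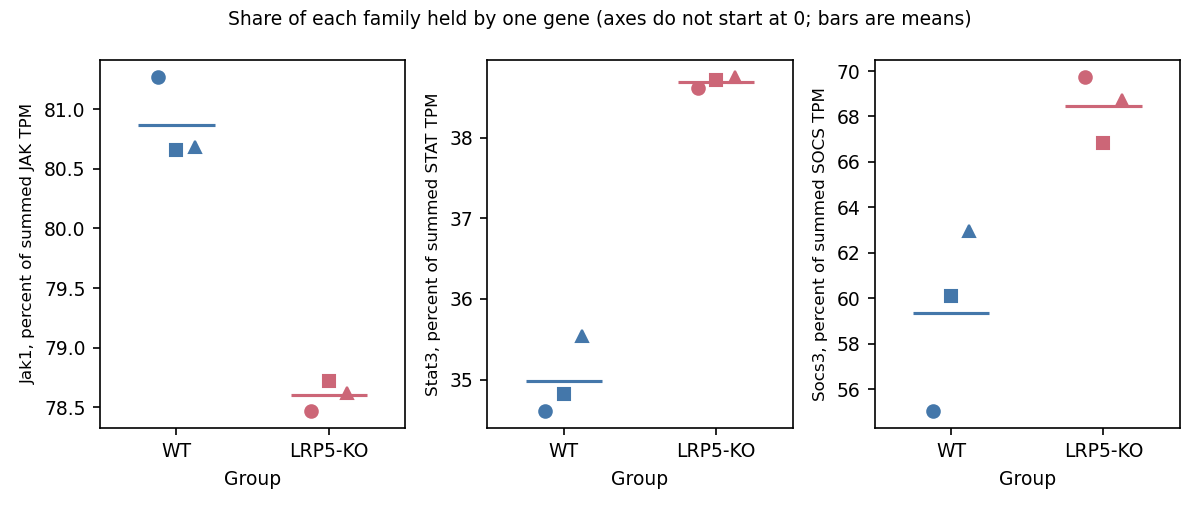
Percent of the summed TPM of 4 JAK genes, of Stat3, Stat5a, Stat5b and Stat6, or of 8 SOCS and Cish genes held by Jak1, Stat3 and Socs3 in each WT (blue) and LRP5-KO (red) library, with bars for means and axes that do not start at 0. In each panel the groups do not overlap, and the LRP5-KO libraries lie closer together than the WT libraries.

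Of the feedback inhibitors, Socs3, which binds JAK1 and JAK2 on the gp130, G-CSF and leptin receptors and blocks them, lies on chromosome 11 from 117827393 to 117831361 (minus strand). It was 25.7, 27.5 and 32.1 TPM in WT and 39.4, 36.4 and 41.2 TPM in LRP5-KO. Every LRP5-KO library was above every WT library, and the means differed by 37.2%. The log2 fold change of 0.45 (95% interval 0.22 to 0.68) did not pass the adjusted threshold (limma adjusted p = 0.0892), and the exact permutation test gave p = 0.1, two-sided, the smallest that 3 against 3 libraries allow. It was above 0 under all 15 alternatives, from 0.27 against WT replicate 3 alone to 0.54 without that library. The call was made without WT replicate 3 (limma adjusted p = 0.0129) and with GC content and length trends removed (log2 fold change 0.33, limma adjusted p = 0.0296). The genes whose log2(TPM + 1) followed Socs3 most closely over the 6 libraries were Mprip (Pearson r = 0.998), Nup188 (r = 0.996) and Exosc5 (r = 0.995), a description over libraries that share their group and their base composition trend.

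Socs1, which inhibits the kinases downstream of interferon gamma and interleukin-4, lies on chromosome 16 from 10783901 to 10785629 (minus strand). It was 2.87, 3.21 and 4.64 TPM in WT and 3.94, 4.40 and 4.53 TPM in LRP5-KO. The highest library of all was WT replicate 3, while the other two WT libraries were below the LRP5-KO range. The log2 fold change was 0.23 (95% interval -0.11 to 0.57, limma adjusted p = 0.370). It was 0.39 without WT replicate 3 (limma adjusted p = 0.0327), -0.09 against that library alone and 0.04 with GC content and length trends removed.

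Cish, a STAT5 target that damps signals of the interleukin-2 and GM-CSF type of receptor, lies on chromosome 9 from 107198357 to 107205115 (plus strand). It was 2.20, 1.02 and 0.848 TPM in WT and 0.776, 1.03 and 1.1 TPM in LRP5-KO. WT replicate 1 alone was high, and the other 5 libraries lay between 0.776 and 1.1 TPM. The log2 fold change was -0.22 (95% interval -0.69 to 0.25, limma adjusted p = 0.532), and it was 0.02 without WT replicate 1. At this level the scale of log2(TPM + 1) understates differences, and the counts behind the TPM values are unknown.

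Of the other SOCS genes, Socs4, Socs6 and Socs7 passed the filter, and Socs2 and Socs5 had means under 1 TPM. Socs4 was 11.4, 9.83 and 8.6 TPM in WT and 8.23, 7.89 and 8.44 TPM in LRP5-KO, below WT without overlap, as for 12.3% of all genes. Its log2 fold change was -0.24 (adjusted p by limma = 0.212), and -0.06 against WT replicate 3 alone. Socs7 was 1.95 ± 0.24 TPM in WT and 2.36 ± 0.21 TPM in LRP5-KO (SD, n = 3 each) and overlapped between the groups. The summed TPM of the 7 SOCS genes and Cish was 46.6, 45.7 and 51.0 in WT and 56.4, 54.5 and 59.9 in LRP5-KO, also without overlap. Socs3 made up 55.0%, 60.1% and 63.0% of this sum in WT and 69.7%, 66.8% and 68.7% in LRP5-KO, and Socs4 20.9 ± 3.8% and 14.4 ± 0.26% (SD, n = 3 each). The ratio of Socs3 to Socs1 overlapped between the groups (8.94, 8.55 and 6.92 in WT, and 9.99, 8.28 and 9.08 in LRP5-KO).

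Across the families, the Jak1 to Socs3 ratio was 7.78, 7.04 and 6.69 in WT and 4.17, 4.59 and 4.40 in LRP5-KO. Relative to the G-CSF receptor, the ratio of Socs3 to Csf3r was 0.0264, 0.0284 and 0.0273 in WT and 0.0358, 0.0316 and 0.0338 in LRP5-KO, and that of Stat3 to Csf3r was 0.0986, 0.104 and 0.103 in WT and 0.109, 0.108 and 0.109 in LRP5-KO. For both ratios WT replicate 3 lay with the other WT libraries. Of 25 sums, shares and ratios compared, 15 did not overlap between the groups, and each of these had an exact permutation p of 0.1, two-sided, the smallest possible (0.167 after Benjamini-Hochberg adjustment over the 25). A quantity without overlap always has this p, so the test adds nothing to the lack of overlap. These quantities share genes and are not independent of each other. Jak1 was lower and Socs3 higher in every LRP5-KO library than in every WT library, so their ratio could not overlap. How often sums, shares and ratios of other genes overlap was not computed, so 15 of 25 has no background to be read against. The ratios within a library do not change with its scaling, but they join genes of different base composition.

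GC content ran from 44.3% for Jak2 to 63.6% for Socs1 among the longest protein-coding transcripts of the 10 genes, with a median of 54.8% against 49.98% over all genes with a value. Across the 10 genes, which are not independent replicates, the Spearman correlation of GC content with the log2 fold change was 0.53, and it was 0.44 after the trends were removed. Over 82 genes of the pathway the same correlation was 0.57 before and 0.17 after. The trends were fitted to GC content over genes that include these, so a lower correlation afterwards is built in. The largest shift among the 10 was in Socs1, the gene richest in G and C, from 0.23 to 0.04 on the log2 scale.

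**Figure D4:**
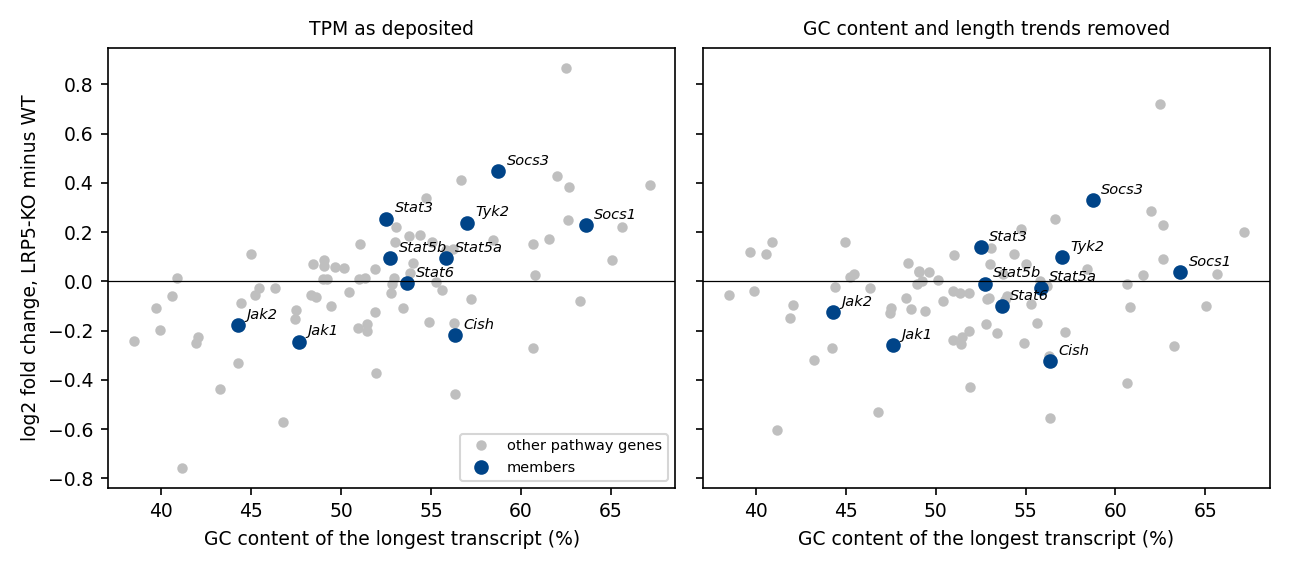
Log2 fold change (LRP5-KO minus WT) against the GC content in percent of the longest transcript for the 10 genes (blue, named) and 72 other genes of the pathway (grey), from TPM as deposited (left) and after removal of GC content and length trends (right). Fold changes climb with GC content on the left (Spearman 0.57 over the 82 genes) and much less on the right (0.17), a drop that the removal builds in. On the right Socs3 stays the highest and Cish and Jak1 are the lowest of the 10.

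Upstream of the kinases, 17 of 31 JAK-coupled receptor chains passed the filter. Of these 1 was called, lower in LRP5-KO (0.532% of all genes were called), and 2 had an unadjusted p under 0.05 (23.5% of all genes). The median log2 fold change was 0.01. The gene called was Il13ra1, the interleukin-13 receptor chain that pairs with Il4ra and signals through STAT6. It fell from 64.3, 60.1 and 47.7 TPM in WT to 32.5, 33.5 and 33.9 TPM in LRP5-KO, a log2 fold change of -0.76 (95% interval -1.02 to -0.50, adjusted p by limma = 0.0447). Without WT replicate 3 it was -0.88, and against that library alone it was -0.51 (limma adjusted p = 0.108). The most abundant receptor genes, Csf3r (1038 ± 119 TPM in WT and 1156 ± 60 TPM in LRP5-KO, SD, n = 3 each) and Csf2ra, the GM-CSF receptor alpha chain (241 ± 25 and 271 ± 8 TPM, SD, n = 3 each), overlapped between the groups. Il10ra, the interleukin-10 receptor chain that signals through STAT3, was 16.9 ± 1.7 TPM in WT and 19.8 ± 0.67 TPM in LRP5-KO (SD, n = 3 each). Each LRP5-KO library was above each WT library, as for 17.4% of all genes (log2 fold change 0.22, limma adjusted p = 0.189).

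Of 16 cytokine ligands, 3 passed the filter and 0 were called by limma or had an unadjusted p under 0.05 (0.532% and 23.5% of all genes). They were Osm, a gp130 family cytokine at 323 ± 58 TPM in WT and 365 ± 16 TPM in LRP5-KO (SD, n = 3 each), Il15 at 31.1 ± 2.9 and 32.6 ± 4.6 TPM, and Il27 at 4.54 ± 0.52 and 5.06 ± 0.37 TPM, and all 3 overlapped between the groups. Among the other 13 negative regulators, 12 passed and 1 was called higher (0.532% of all genes were called in either direction). Sh2b2, an adaptor that binds JAK2 and recruits the ubiquitin ligase CBL, rose from 6.19, 5.59 and 8.21 TPM in WT to 13.2, 11.8 and 13.6 TPM in LRP5-KO, a log2 fold change of 0.87 (95% interval 0.56 to 1.18, adjusted p by limma = 0.0476). It was 0.72 with GC content and length trends removed (limma adjusted p = 0.0211) and 0.59 against WT replicate 3 alone (limma adjusted p = 0.158). Without overlap, 1 of the 12 was above WT (Sh2b2, against 17.4% of all genes) and 2 were below (12.3%). The latter were the tyrosine phosphatases Ptprc (CD45, 798 ± 72 TPM in WT and 669 ± 15 TPM in LRP5-KO, SD, n = 3 each) and Ptpn6 (SHP-1, 399 ± 21 and 356 ± 2.5 TPM, SD, n = 3 each). Their log2 fold changes were -0.25 (adjusted p by limma = 0.139) and -0.17 (limma adjusted p = 0.180). Against WT replicate 3 alone they were -0.11 and -0.25, and without that library -0.32 and -0.12.

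Downstream, none of 19 genes induced through STAT3 or STAT5 that passed the filter, of 22 listed, was called by limma, and 7 had an unadjusted p under 0.05 (23.5% of all genes). The median log2 fold change was 0.07, with 5 genes (Batf, Bcl3, Junb, Pim3 and Cebpd) above WT without overlap (17.4% of all genes) and 1, Pim1, below (12.3%), Junb, Pim3, Cebpd and Pim1 being named after their values were seen. Against WT replicate 3 alone the median of the list was -0.04. Batf, a transcription factor of the AP-1 family, was 16.8, 16.5 and 15.1 TPM in WT and 23.0, 21.8 and 20.5 TPM in LRP5-KO (log2 fold change 0.41, limma adjusted p = 0.0675), and Bcl3, an atypical inhibitor of NF-kB, had a log2 fold change of 0.38 (adjusted p by limma = 0.106). With GC content and length trends removed they were 0.25 and 0.23, and against WT replicate 3 alone 0.50 and 0.20. The most abundant genes of the list, Lcn2 and Hp, which encode the granule proteins lipocalin-2 and haptoglobin, overlapped between the groups, with log2 fold changes of 0.07 and -0.17. Pim1, a survival kinase, had a log2 fold change of -0.27 (adjusted p by limma = 0.142). Of 14 genes induced through STAT6, 4 passed and 0 were called by limma or had an unadjusted p under 0.05 (0.532% and 23.5% of all genes). The most abundant was Chil3, a chitinase-like protein also made by immature neutrophils (5930.5 ± 336 TPM in WT and 6392 ± 153 TPM in LRP5-KO, SD, n = 3 each), while Il4ra (67.3 ± 8.5 and 65.4 ± 3.3 TPM) and Ptgs1 (31.8 ± 3.3 and 35.3 ± 0.21 TPM) overlapped between the groups.

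Of 18 interferon-induced genes, 14 passed the filter, and all 14 had a log2 fold change below 0 (41.2% of all genes), with a median of -0.16. In 8 of the 14 each LRP5-KO library was below each WT library (12.3% of all genes), 6 had an unadjusted p under 0.05 (23.5%), and 1 was called (0.532%). That gene, Gbp2, an interferon-induced GTPase, fell from 38.9, 34.5 and 33.9 TPM in WT to 23.6, 23.6 and 23.9 TPM in LRP5-KO, a log2 fold change of -0.57 (95% interval -0.75 to -0.39, adjusted p by limma = 0.0357). It was -0.50 against WT replicate 3 alone (limma adjusted p = 0.115). Ifit1 (log2 fold change -0.44, limma adjusted p = 0.0648) and Irf9, a transcription factor of the interferon response (log2 fold change -0.37, limma adjusted p = 0.0855), did not overlap either. Oasl2, the most abundant of the list, varied widely within both groups (106 ± 26 TPM in WT and 98.7 ± 26 TPM in LRP5-KO, SD, n = 3 each). Against WT replicate 3 alone the median of the 14 was -0.17. In that fit Oasl2 (0.34), Irf1 (0.16) and Cxcl10 (0.02) were above 0 and the rest below. Without WT replicate 3 the median was -0.13, with Irf7 (0.05) above 0 and the rest below. Irf1, Irf7 and Cxcl10 were named after their values were seen.

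**Figure D5:**
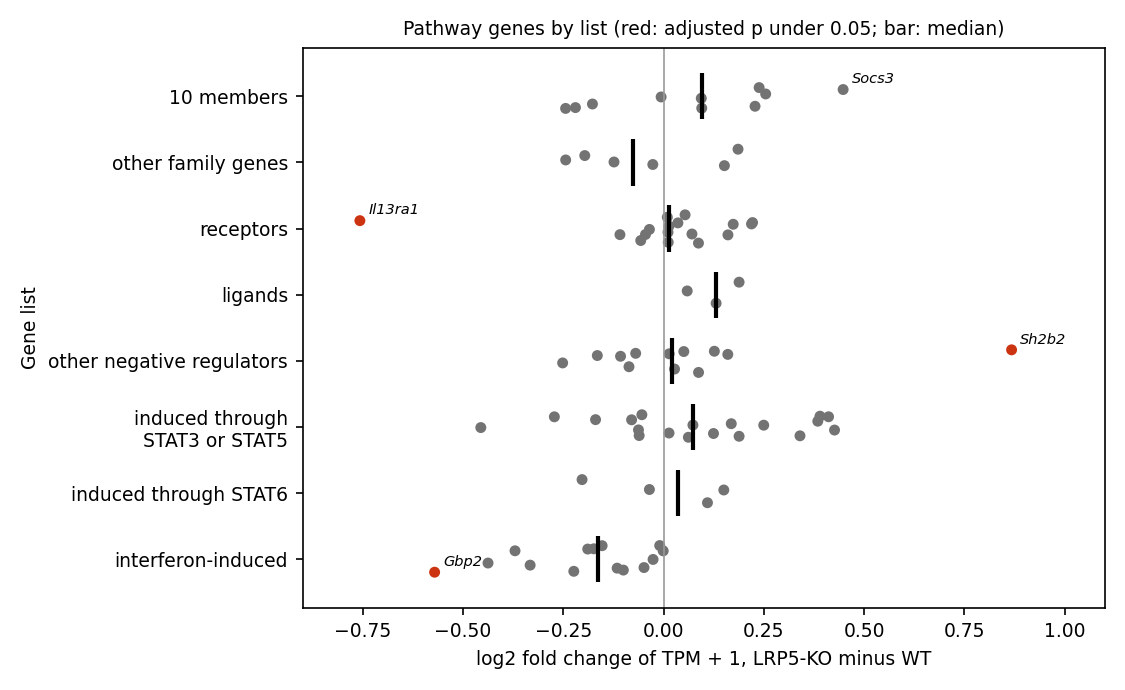
Log2 fold change of TPM + 1 (LRP5-KO minus WT) for each gene that passed the filter in the 10 genes and in 7 other lists of the pathway, with a black bar at each list's median and red points for an adjusted p under 0.05. The 3 red points are Il13ra1 and Gbp2 below 0 and Sh2b2 above 0, and the interferon-induced list is the one with all its genes below 0.

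Immediate early genes respond within minutes to many stimuli, and Junb stands on this list as well as on that of STAT3 and STAT5. Of 14 such genes all passed the filter and 0 were called by limma (0.532% of all genes), with 3 at an unadjusted p under 0.05 (23.5% of all genes). Their median log2 fold change was 0.06. Fos (838 ± 58 TPM in WT and 862 ± 41 TPM in LRP5-KO, SD, n = 3 each) overlapped between the groups. Without overlap, 2 of the 14 were below WT (Dusp1 and Fosb, log2 fold changes -0.09 and -0.26, against 12.3% of all genes). Another 2 were above WT without overlap (Junb and Atf3, 0.25 each, against 17.4% of all genes). Fosb was named after its value was seen. Of 10 markers of early neutrophil precursors, 10 passed, 7 were above WT without overlap (17.4% of all genes) and 0 were called by limma. An unadjusted p under 0.05 was found for 6 (23.5% of all genes). Their median was 0.27 and their summed level 6057 to 6728 TPM in WT and 6835 to 7144 TPM in LRP5-KO. Chil3 makes up most of this sum, and the other 9 summed to 504 to 536 TPM in WT and 601 to 614 TPM in LRP5-KO. Of 12 monocyte and macrophage markers 9 passed, and 4 were above WT without overlap (Adgre1, C1qa, C1qb and C1qc, named after their values were seen, against 17.4% of all genes). Of the 9, 6 had a log2 fold change above 0 and 3 below (Ccr2, Irf8 and F13a1, also named afterwards, at -0.10, -0.06 and -0.02). By limma 0 were called, with 4 at an unadjusted p under 0.05 (23.5% of all genes). The list summed to 58.9 to 72.1 TPM in WT and 70.9 to 80.4 TPM in LRP5-KO. T and NK cell markers summed to 11.7 to 13.5 TPM in WT and 15.9 to 17.6 TPM in LRP5-KO, with 2 of 9 above the filter. Cd3d made up most of this sum (10.1 ± 0.69 TPM in WT and 13.9 ± 0.56 TPM in LRP5-KO, SD, n = 3 each). The other genes of this list overlapped between the groups. Mean levels in LRP5-KO were lower for Cd3e, Cd3g, Cd8a and Il7r and higher for Cd4, Nkg7, Klrd1 and Ncr1, all named after their values were seen, as was Cd3d. Eosinophil, basophil and mast cell markers summed to 14.04 to 16.8 TPM in WT and 17.3 to 18.3 TPM in LRP5-KO, with 4 of 10 above the filter. Of these 1, Prg2, was called higher (0.532% of all genes were called), and it alone was without overlap (17.4% of all genes were above WT). It was 1.02 ± 0.16 TPM in WT and 2.79 ± 0.41 TPM in LRP5-KO (SD, n = 3 each, limma adjusted p = 0.0341). The others above the filter overlapped between the groups, so the difference in the sum was not shared across the list. Their log2 fold changes were 0.03 for Siglecf, 0.0037 for Prss34 and -0.05 for Mcpt8, all named after their values were seen. B cell markers summed to 26.0 to 36.9 TPM in WT and 29.4 to 29.6 TPM in LRP5-KO, erythroid markers to 48.1 to 57.0 and 42.3 to 54.0 TPM, megakaryocyte markers to 3.74 to 5.38 and 5.75 to 6.65 TPM, and dendritic cell markers, all under the filter, to 0.963 to 1.5 and 1.48 to 1.61 TPM. None of these markers was at 0 in all libraries. The part of these cells in the levels of the 10 genes was not tested.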

How the data were processed

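RNA of bone marrow neutrophils was sequenced in 3 WT and 3 LRP5-KO libraries. Per the labels, neutrophils came from a Percoll gradient and an mRNA kit was used, whereas the study's methods describe cells sorted on CD11b and Ly6G, a stranded library kit for total RNA and single-end sequencing, and the deposited read summary lists read pairs. The authors aligned reads to mm9 and name DESeq2. The tool that made the deposited TPM values is not given in the sources used here. The read summary deposited by the authors holds counts of reads and shares of reads in percent (249841492 to 340580330 reads in total, 206524690 to 288073020 uniquely aligned). TPM keeps no counts, so the counting error of a gene is unknown.

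Genes averaging 1 TPM or more (9775 of 52636) were analysed as log2(TPM + 1) by limma 3.58.1 (R 4.3.3), using its trend option, no covariate and Benjamini-Hochberg adjustment over all genes tested at a threshold of 0.05. A fold change on this scale understates the change of low genes. The exact permutation tests were two-sided (SciPy 1.17.1). The fit was tested on simulated data with known changes. GC content, length and coordinates came from GENCODE M1 (NCBIM37), with a value for 89.7% of the genes tested, and the trends were removed within each library by natural splines of 5 degrees of freedom.

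The 10 genes and all lists were chosen with earlier results of these data known, and the induced-gene and marker lists came from general knowledge. The rule for named genes took the 10, and from each pathway list the genes with an adjusted p under 0.05, the 2 of highest mean TPM and the 2 of smallest unadjusted p among those tested, plus Lrp5, Lyz2 and the 3 genes most correlated with Socs3, which had the smallest p of the 10. Alternatives were another pseudocount (0.1), no filter or a mean of at least 5 TPM, median-ratio scaling, no trend, omission of each library, a block for the replicate number, the ribosomal share as a covariate, WT replicate 3 alone as the control and, added after the data had been seen, removal of GC content and length trends. 1 gene of the lists is not reported here. Other experiments of the study were not analysed here.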

Additional observations from a re-analysis of the deposited data

How the results depend on the processing

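Over all genes, the count of 52 with an adjusted p under 0.05 (26 higher and 26 lower) became 3 with no filter on low values, 29 with a mean of at least 5 TPM, 83 with median-ratio scaling (30 higher and 53 lower), 6 with the ribosomal share as a covariate, 6 against WT replicate 3 alone, 425 with GC content and length trends removed (157 higher and 268 lower), and between 2 and 1920 when 1 library was left out, with 1920 without WT replicate 3 and 18 or fewer without any other. With the replicate number as a block 4 genes and 0 of the 10 were called. Each library's deviations from its group mean were correlated over genes between WT and LRP5-KO libraries. For same-numbered libraries the Pearson correlations were 0.229, -0.0075 and 0.131. Replicates 1 and 3 of each group correlated best with their own number, and replicate 2 of neither group did. The numbers were not taken to pair the libraries. Of the 10 genes 0 were called under 13 of 15 alternatives, 2 with GC content and length trends removed, and between 0 and 3 when 1 library was left out, with 3 without WT replicate 3. The log2 fold changes of Jak1, Jak2, Stat3 and Socs3 kept their direction under all 15. Of 148 values over the 10 genes 12 were reversed. Against WT replicate 3 alone these were Tyk2 (-0.018), Stat5a (-0.021), Stat5b (-0.083), Socs1 (-0.094) and Cish (0.087). With GC content and length trends removed they were Stat5a (-0.025) and Stat5b (-0.0094), and with the ribosomal share as a covariate Stat5b (-0.032). With 1 library left out they were Stat6 without WT replicate 3, LRP5-KO replicate 1 or LRP5-KO replicate 2 (range over all 6 omissions -0.052 to 0.074) and Cish without WT replicate 1 (range -0.373 to 0.022, the highest value being the one without WT replicate 1). A lone WT library was assumed to vary like the LRP5-KO libraries. The cause of these shifts was not tested.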
